A study of Mus musculus with 18 samples.

Results

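Ileum of C57BL/6 mice aged 24 days was compared with ileum of C57BL/6 mice aged 11 days, an interval that spans the change from milk to solid food. The comparison used 6 of the 18 arrays of a developmental series, 3 individual mice at each of these ages, chosen by the age in the labels. The other 12 arrays, of mice aged 4, 7, 9 and 32 days, entered the estimate of the spread and the description of how levels ran over time. Each piece of ileum held all layers of the gut wall, so that epithelium, muscle, nerves, vessels and immune cells all gave RNA, and in such bulk tissue fewer cells of a type and less RNA per cell cannot be told apart. The mice carried no stated genetic change and received no stated treatment. Sex, litter, diet and the day of weaning are not given in the labels, and that weaning fell between these ages is general knowledge of laboratory mice. Nothing in the labels says whether the 3 mice of an age were littermates, so the p-values measure the spread between these mice.

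The suckling ileum is lined by enterocytes that take up milk proteins whole from the lumen, carry them in large apical endosomes and break them down in a giant lysosome. At weaning these cells are replaced by adult enterocytes, which digest food at the brush border with membrane-bound enzymes and absorb the products, and the ileum takes on the recovery of bile acids. Over the same weeks Paneth cells fill the new crypts, the microbiota diversifies, antibodies from milk are withdrawn and the mouse begins to make its own immunoglobulin A.

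Levels are deposited log2 values from short-oligonucleotide Affymetrix arrays, and 1 probe set stands for each gene. Differences are day 24 minus day 11 on the log2 scale with their standard error (SE) from a limma model fitted to all 18 arrays, and p-values are adjusted over the 8630 genes tested by the Benjamini-Hochberg method, with a gene called below 0.05. The array medians ran from 3.88 to 3.97, and a level near or under them could not be separated from background. Where 1 of the ages lay there, the size of the fold rests on how background was corrected. Arrays of day 24 correlated with each other at 0.987 to 0.991 and those of day 11 at 0.983 to 0.992, against 0.937 to 0.955 between the ages.

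Of 10 markers of ileum, 7 were higher and 1 lower on day 24, and none lay below the array medians at both ages, although Slc10a2 was at background on day 11. Several technical readings moved with age. The poly-A control probe sets, which read spike-in RNAs, had a level of 5.80 ± 0.12 on day 24, against 4.01 ± 0.38 on day 11 (SD over 3 mice of each age), and the 18S ribosomal RNA probe sets had 10.47 ± 0.33 on day 24 and 6.52 ± 1.45 on day 11, with no overlap in either. Over the series the poly-A controls ran from 5.30 to 6.86 on days 24 and 32 and from 3.68 to 4.76 at the younger ages. Their level thus cannot be told apart from age. Hybridization spike controls read 9.85 ± 0.15 on day 24 and 9.07 ± 0.48 on day 11, and replicate 1 of day 11 (9.62) lay nearest to the day 24 arrays, just below the lowest of them (9.69). In the poly-A and 18S controls that replicate read 4.43 and 8.19, still below every day 24 array. A fit that blocked on this difference in the hybridization controls called 2454 genes higher and 2551 lower on day 24, and among the 10 arrays of the series with the higher controls, all 3 of day 24 and 1 of day 11, 1737 were higher and 1781 lower. The Y-linked gene Eif2s3y was high on 2 of 3 arrays of day 24 and on 1 of 3 of day 11, and with the level of Xist as a covariate 2111 genes were higher and 2649 lower. Replicate 3 of day 24 stood apart in the 3' minus 5' difference of Actb, a sign of RNA quality, with 0.61, 0.65 and 1.40 on day 24, against 0.76, 0.35 and 0.39 on day 11. For Gapdh this difference was 0.38, 0.27 and 0.92 on day 24, against 0.79, 0.04 and 0.39 on day 11. The part of these readings in the differences below was not tested.

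The ileum on day 24 differed from that on day 11 in most of its tested genes. Of 8630 genes, 2318 (26.9%) were called higher and 2791 (32.3%) lower on day 24, which makes 5109 (59.2%) in either direction. At least 2-fold differences were called for 687 genes higher (7.96%) and 957 lower (11.1%). At least 16-fold differences were called for 40 genes higher and 35 lower. The median difference over all genes was -0.04. The 3 arrays of day 24 lay entirely above the 3 of day 11 for 2291 genes (26.5%) and entirely below for 2865 (33.2%). Of the called genes, 368 had arrays that overlapped between the ages. The mean of the lower age lay under the highest array median for 58 genes called higher and 41 called lower.

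The largest rises joined mucus, defence, bile acid handling, transport and detoxification. Zg16, a lectin-like protein that goblet cells secrete into mucus, had levels of 12.92, 13.20 and 13.25 on day 24, against 4.38, 4.45 and 4.66 on day 11, a 395-fold difference (log2 8.63 ± 0.13; limma adjusted p = 7.07e-19). Reg3g, a secreted lectin that kills Gram-positive bacteria, read 12.53, 13.53 and 13.61 on day 24, against 4.83, 5.26 and 5.32 on day 11 (271-fold; adjusted p = 2.17e-09). Fabp6, which binds bile acids inside ileal enterocytes, read 12.90, 13.10 and 13.28 on day 24, against 5.64, 5.34 and 6.31 on day 11 (161-fold; adjusted p = 5.42e-14). In all 3 the ages were far apart, and on day 24 these transcripts were among the brightest on the arrays. The next were Cyp4f14, a cytochrome P450 that hydroxylates leukotriene B4 and fatty acids (127-fold), Slc13a1, a sodium-sulfate cotransporter (119-fold), Reg3a, another secreted lectin (101-fold), and Dpep1, a membrane dipeptidase (80.6-fold). Adh6a, an alcohol dehydrogenase, was 74.4-fold higher and the brush border phospholipase Plb1 72.6-fold. Arg2, the mitochondrial arginase, was 59.3-fold, the secreted Fam3b 58.4-fold and Igha, the constant part of the immunoglobulin A heavy chain, 54.7-fold higher. The day 11 means of Slc13a1, Reg3a, Adh6a, Plb1, Arg2 and Fam3b lay under the array medians.

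The largest falls were led by proteins of the apical surface and of the endosomal and lysosomal system. Folr1, the GPI-anchored folate receptor, read 3.70, 3.43 and 3.61 on day 24, against 11.78, 12.26 and 12.28 on day 11, a 368-fold difference (log2 -8.52 ± 0.16; adjusted p = 1.69e-17). Meltf, the GPI-anchored iron-binding melanotransferrin, read 3.42, 4.28 and 4.77 on day 24, against 12.57, 12.58 and 12.48 on day 11 (335-fold lower; adjusted p = 2.08e-15). Mcoln3, a cation channel of endosomes and lysosomes, read 2.79, 2.51 and 2.62 on day 24, against 9.91, 10.45 and 10.24 on day 11 (189-fold lower; adjusted p = 3.07e-17). All 3 genes had day 24 levels at or near background and day 11 levels among the upper part of the array. Mamdc4, the apical endosomal glycoprotein also called endotubin, was 145-fold lower, and the transcription factor Tfec 76.7-fold. The glutathione transferase Gsta2 was 65.3-fold, Tdrp 51.8-fold, the thyroid hormone and retinol carrier Ttr 46.1-fold and the hyaluronidase Hyal5 44.3-fold lower. Gpx3, the secreted glutathione peroxidase, stayed well above background at both ages, with 8.19, 8.32 and 8.41 on day 24, against 13.27, 13.27 and 13.20 on day 11 (30.7-fold lower). Lgmn, the asparaginyl endopeptidase of lysosomes, was 30.1-fold and Spp2 28.7-fold lower. The day 24 means of Tfec, Gsta2, Tdrp, Hyal5 and Spp2 also lay under the array medians.

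**Figure D1:**
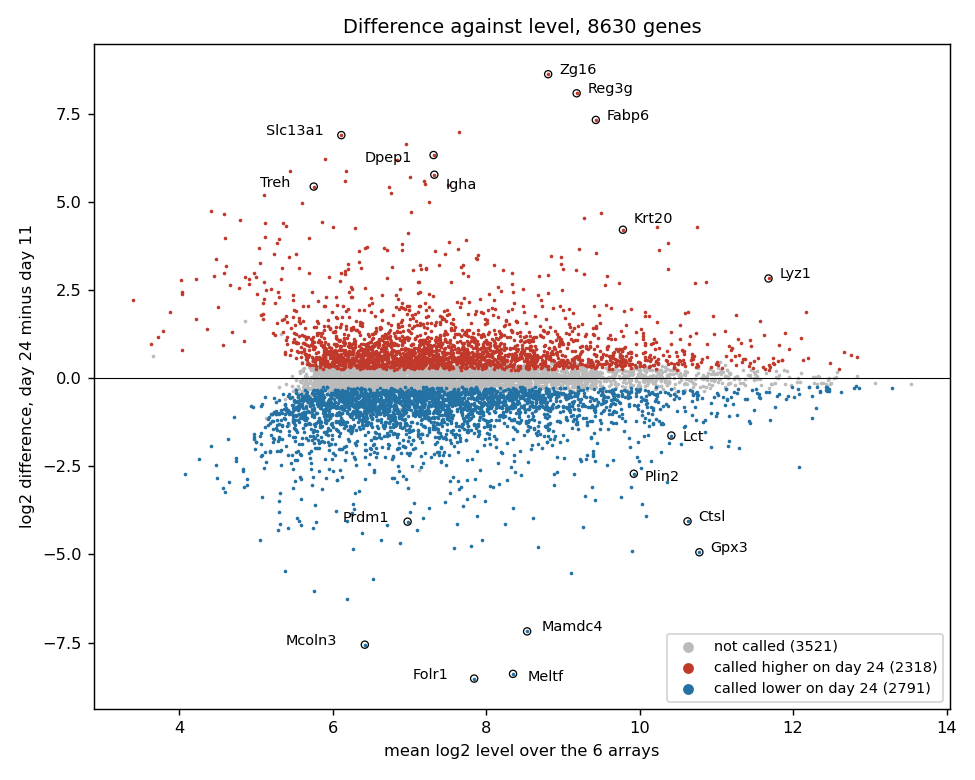
Log2 difference (day 24 minus day 11) of each of the 8630 genes against its mean log2 level over the 6 arrays, with 2318 genes called higher, 2791 called lower and 3521 not called. Zg16 at 8.63 and Folr1 at -8.52 mark the ends, and the genes labelled are among those described in the text.

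Gene lists of the postnatal gut were described by how many of their tested members were called, beside the 26.9% called higher and 32.3% called lower among all genes. Among the lists with most members higher were those of Paneth cells, goblet cells, microbe-responsive defence, peptidases, ion transport and cholesterol synthesis. Among those with most members lower were the lysosome, the vacuolar ATPase, the imprinted growth network, the IGF axis and the extracellular matrix.

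**Figure D2:**
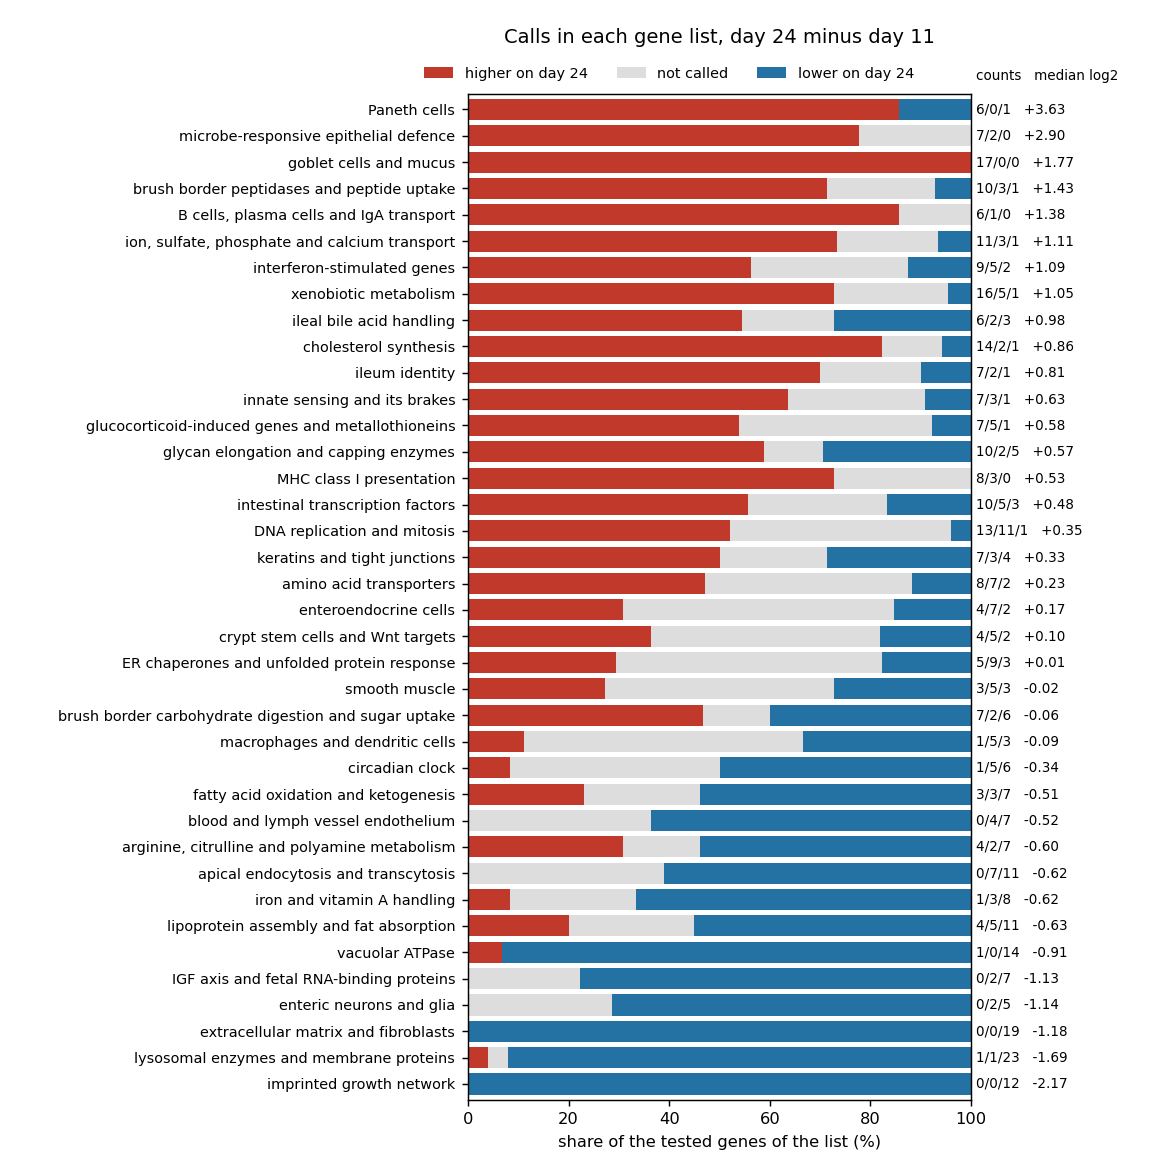
Share of the tested genes of each list called higher on day 24 (red), not called (grey) and lower on day 24 (blue), for lists with at least 7 tested genes, ordered by median difference; at the right are the 3 counts and the median log2 difference, day 24 minus day 11. All 12 imprinted genes and all 19 matrix genes tested were lower and all 17 goblet cell genes tested were higher on day 24.

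Genes of sugar digestion at the brush border went in both directions. Of 15 tested genes of carbohydrate digestion and sugar uptake 7 were higher and 6 lower on day 24, and the list median changed sign with the processing (-0.06, between -0.32 and 0.54 over the alternatives). Treh, the trehalase that splits the sugar of fungi and insects, read 8.80, 8.22 and 8.40 on day 24, against 3.33, 2.86 and 2.91 on day 11 (43.3-fold; log2 5.44 ± 0.19; adjusted p = 7.02e-14). Lct, the lactase that splits milk sugar, read 10.77, 9.54 and 8.49 on day 24, against 11.34, 11.06 and 11.29 on day 11 (3.09-fold lower; log2 -1.63 ± 0.35; adjusted p = 6.18e-04). The day 24 mice were thus widely spread in lactase while all lay below the day 11 mice. Without day 24 replicate 3 the difference was -1.07, and without replicate 1 it was -2.21. Slc2a5, the fructose transporter of the brush border, was 4.94-fold higher. Fbp1 and G6pc, enzymes of glucose production, were 10.4-fold and 6.10-fold lower. Sis, the sucrase-isomaltase, was not among the tested genes. 

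The promoter of Treh, as RefSeq places it on GRCm38.p6 (chr9:44672983-44673282, plus strand, from 250 bases before the transcript start to 50 after), is shown because Treh is the sugar-digesting gene with the largest rise. Capitals mark a match to CAAAGTCCA, part of the element bound by the enterocyte factor HNF4, on the reverse strand at position -71 from the start. This motif, searched on both strands, lies in 0.555% of all 27025 genes with such a window and in 0.653% of the 7042 tested ones.
Treh: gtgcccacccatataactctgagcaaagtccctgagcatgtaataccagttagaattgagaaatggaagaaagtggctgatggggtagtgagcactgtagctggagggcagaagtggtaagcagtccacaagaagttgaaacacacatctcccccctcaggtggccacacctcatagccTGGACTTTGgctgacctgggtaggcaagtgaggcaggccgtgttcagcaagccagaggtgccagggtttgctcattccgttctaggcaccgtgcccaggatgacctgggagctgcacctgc
In all, 17 motifs were searched, and the promoters printed here and below were chosen after their matches were seen. A match describes the letters and is not evidence of binding.

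Most peptidases of the brush border and the transporter of their products rose. Of 14 tested genes 10 were higher and 1 lower on day 24, with a median difference of 1.43. Dpep1 read 10.57, 10.50 and 10.37 on day 24, against 3.91, 4.29 and 4.24 on day 11. Mme, neprilysin, read 7.64, 6.60 and 6.48 on day 24, against 2.17, 2.11 and 2.50 on day 11 (25.1-fold; adjusted p = 7.04e-11). Slc15a1, the proton-coupled transporter of di- and tripeptides, read 9.21, 9.03 and 8.74 on day 24, against 6.48, 5.30 and 5.58 on day 11 (9.26-fold; adjusted p = 1.04e-08). None of these overlapped between the ages. Xpnpep2, an aminopeptidase for bonds to proline, was 12.6-fold higher. Amino acid transporters were more mixed, with 8 of 17 higher and 2 lower on day 24. Among them Slc7a15 was 21.1-fold, the glutamate carrier Slc1a1 8.55-fold and the proline carrier Slc6a20a 5.19-fold higher, while the glutamine carrier Slc38a3 was 4.16-fold lower. The day 11 mean of Slc7a15 (2.92) lay under the array medians.

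In the suckling gut, enterocytes make arginine from citrulline, since milk holds little of it. Of 13 tested genes of arginine, citrulline and polyamine metabolism 4 were higher and 7 lower on day 24. Arg2, the arginase, read 9.16, 7.95 and 8.06 on day 24, against 2.54, 2.32 and 2.66 on day 11. Asl, the argininosuccinate lyase that releases arginine, read 7.25, 7.21 and 7.09 on day 24, against 9.29, 9.63 and 9.68 on day 11 (5.10-fold lower; adjusted p = 3.10e-10). Neither gene overlapped between the ages. Ass1, the argininosuccinate synthase, was not tested, and its level lay under the array medians at both ages. Gatm, which uses arginine in the making of creatine, was 15.7-fold lower, and Aldh18a1, which makes the precursor of proline and citrulline, 3.56-fold lower. The day 24 mean of Gatm (3.55) lay under the array medians.

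Transport of ions rose in 11 of 15 tested genes and fell in 1, with a median of 1.11. Beside Slc13a1, these included the sodium-proton exchanger Slc9a2 (13.1-fold; adjusted p = 6.33e-15), the anion exchanger Slc26a6 (7.69-fold) and the membrane carbonic anhydrase Car4 (31.5-fold). The day 11 mean of Car4 (3.11) lay under the array medians, and its day 24 arrays read 6.51, 8.55 and 9.21. Slc13a1 itself read 9.10, 9.85 and 9.74 on day 24, against 2.54, 2.61 and 2.84 on day 11. Iron and vitamin A handling went the other way, with 1 of 12 genes higher and 8 lower on day 24. Slc11a2, the divalent metal transporter that takes up iron, read 5.30, 5.39 and 5.54 on day 24, against 9.19, 9.21 and 8.91 on day 11 (12.9-fold lower; adjusted p = 8.71e-14). The iron exporter Slc40a1, ferroportin, was 5.09-fold lower (log2 -2.35), and the difference was -1.48 without day 24 replicate 1, where it was lowest. Lrat, which esterifies retinol for storage, was 6.23-fold lower, and Aldh1a1, which makes retinoic acid, 2.72-fold higher.

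Most genes of the system that takes up and breaks down milk proteins fell. Of 18 tested genes of apical endocytosis and transcytosis 11 were lower on day 24 and the other 7 were not called, with a median of -0.62. Among the 10 arrays with the higher hybridization controls 6 were lower. Mamdc4 read 4.94, 4.88 and 5.01 on day 24, against 11.94, 12.36 and 12.08 on day 11. Dab2, an adaptor of clathrin-mediated uptake, read 6.27, 6.39 and 5.89 on day 24, against 10.44, 10.40 and 10.11 on day 11 (17.5-fold lower; adjusted p = 1.25e-13). Fcgrt, the neonatal Fc receptor that carries milk immunoglobulin G across the epithelium, read 8.09, 8.29 and 8.38 on day 24, against 11.59, 11.91 and 11.96 on day 11 (11.9-fold lower; adjusted p = 6.21e-13). The ages were separate for each, and Fcgrt remained well above background on day 24. Snx2, a sorting nexin, was 2.39-fold lower.

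Of 25 tested lysosomal enzymes and membrane proteins 23 were lower and 1 higher on day 24, with a median of -1.69. Ctsl, cathepsin L, read 8.72, 8.68 and 8.38 on day 24, against 12.56, 12.77 and 12.63 on day 11 (16.7-fold lower; adjusted p = 1.35e-14). Lgmn read 7.10, 7.78 and 7.45 on day 24, against 12.35, 12.37 and 12.34 on day 11. Ctsa, the protective protein cathepsin A, was 7.72-fold and Glb1, the acid beta-galactosidase, 6.57-fold lower. The exception was Ctsc, cathepsin C, which is also a protease of immune cells, with a difference of 1.24. Asah1, the acid ceramidase, was not called (-0.27). The vacuolar ATPase, the proton pump that acidifies endosomes and lysosomes, fell in 14 of 15 subunits and accessory proteins and rose in 1, by less per gene (median -0.91). With the higher hybridization controls alone 9 of the 15 were lower. Atp6v1h was 3.04-fold, Atp6v1b2 2.95-fold, the membrane subunit Atp6v0a1 2.76-fold and Atp6v1d 2.34-fold lower, while Atp6v0a2, another isoform of the a subunit, differed by 0.91.

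The promoters of 4 of these genes are shown because they hold the core of the CLEAR element, TCACGTGA, which the MiT/TFE transcription factors bind in lysosomal genes. The letters read the same on both strands and include the E-box CACGTG. Of the 32 tested lysosomal and vacuolar ATPase genes with a RefSeq window 6 held it (18.8%), against 1.12% of all genes with a window and 2.49% of tested genes. Among genes at least 2-fold lower on day 24 it was in 32 of 723 windows (4.43%), and among those at least 2-fold higher in 3 of 542 (0.554%). A longer CLEAR palindrome, which extends this core on both sides, was also searched. It lay in 0 of the 32 genes, against 0.37% of all genes with a window and 0.88% of tested genes. Among genes at least 2-fold lower on day 24 the palindrome was in 6 of 723 windows (0.83%). Among those at least 2-fold higher it was in 2 of 542 (0.369%). These are descriptions with no test. The windows lie at chr2:164833523-164833822 (plus strand, Ctsa), chr7:142387778-142388077 (minus, Ctsd, cathepsin D), chrX:134600956-134601255 (minus, Gla, the alpha-galactosidase) and chr16:44139210-44139509 (minus, Atp6v1a, the catalytic subunit of the pump) of GRCm38.p6, with the matches in capitals.
Ctsa: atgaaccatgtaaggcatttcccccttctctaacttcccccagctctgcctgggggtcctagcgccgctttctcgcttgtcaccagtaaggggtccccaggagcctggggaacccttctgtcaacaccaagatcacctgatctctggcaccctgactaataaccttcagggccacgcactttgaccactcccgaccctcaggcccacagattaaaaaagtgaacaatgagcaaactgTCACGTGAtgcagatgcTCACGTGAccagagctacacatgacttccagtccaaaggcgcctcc
Ctsd: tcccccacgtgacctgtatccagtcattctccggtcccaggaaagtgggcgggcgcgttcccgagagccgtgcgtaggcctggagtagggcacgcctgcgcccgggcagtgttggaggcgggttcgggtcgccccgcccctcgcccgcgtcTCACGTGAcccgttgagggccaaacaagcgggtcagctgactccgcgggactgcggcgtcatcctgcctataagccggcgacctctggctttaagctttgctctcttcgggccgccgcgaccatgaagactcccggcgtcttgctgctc
Gla: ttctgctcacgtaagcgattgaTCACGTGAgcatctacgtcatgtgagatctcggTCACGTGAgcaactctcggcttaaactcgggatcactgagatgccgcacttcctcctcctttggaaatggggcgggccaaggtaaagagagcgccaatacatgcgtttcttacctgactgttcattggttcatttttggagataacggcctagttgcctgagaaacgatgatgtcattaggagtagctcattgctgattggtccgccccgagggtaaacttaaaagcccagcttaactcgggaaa
Atp6v1a: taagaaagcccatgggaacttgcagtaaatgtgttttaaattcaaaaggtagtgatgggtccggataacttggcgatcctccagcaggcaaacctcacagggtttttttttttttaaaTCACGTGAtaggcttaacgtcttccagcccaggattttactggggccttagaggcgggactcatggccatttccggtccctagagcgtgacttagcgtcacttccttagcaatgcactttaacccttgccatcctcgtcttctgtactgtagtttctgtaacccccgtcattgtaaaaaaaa
Ctsa and Gla hold 2 matches each, Ctsd and Atp6v1a 1 each. The differences of these genes were -2.95 for Ctsa, -1.23 for Ctsd, -2.13 for Gla and -0.85 for Atp6v1a. Tfec, itself a member of the MiT/TFE family, read 3.26, 3.06 and 2.84 on day 24, against 9.24, 9.53 and 9.17 on day 11.

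The ileal uptake, binding and basolateral export of bile acids rose in their main genes. Of 11 tested genes of ileal bile acid handling 6 were higher and 3 lower on day 24. Slc10a2, the sodium-dependent transporter that takes bile acids from the lumen, read 6.88, 7.34 and 6.14 on day 24, against 2.11, 2.01 and 2.00 on day 11 (26.8-fold; adjusted p = 5.34e-13), and its day 11 level was at background. Slc51b, the beta subunit of the exporter on the blood side, read 10.54, 10.81 and 10.78 on day 24, against 7.32, 7.71 and 7.89 on day 11 (8.39-fold; adjusted p = 2.56e-12). Fgf15, the hormone that ileal bile acids induce and that lowers bile acid synthesis in the liver, read 4.91, 6.68 and 7.09 on day 24, against 8.51, 8.63 and 8.62 on day 11 (5.14-fold lower; adjusted p = 8.36e-05). The ages did not overlap in any of these. Abcc2, an apical exporter of conjugates, was 12.8-fold lower.

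The promoter of Slc10a2 (RefSeq, GRCm38.p6, chr8:5105238-5105537, minus strand) is shown since the gene was at background on day 11 and clearly above it on day 24. Capitals mark a match to part of the element of the enterocyte and hepatocyte factor HNF1, on the reverse strand at -221, a motif found in 0.47% of all windows and 0.383% of those of tested genes.
Slc10a2: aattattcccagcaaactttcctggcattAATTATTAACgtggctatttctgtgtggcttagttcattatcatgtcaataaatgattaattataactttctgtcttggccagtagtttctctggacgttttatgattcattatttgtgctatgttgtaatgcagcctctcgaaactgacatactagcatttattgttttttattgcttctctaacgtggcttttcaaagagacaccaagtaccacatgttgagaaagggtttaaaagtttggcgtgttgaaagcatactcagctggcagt

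Fat handling fell in 11 of 20 tested genes and rose in 4 on day 24, with a median of -0.63. Apoa4, an apolipoprotein of chylomicrons, read 11.28, 10.61 and 10.55 on day 24, against 13.30, 13.38 and 13.33 on day 11 (5.75-fold lower; adjusted p = 6.08e-08). Plin2, the coat protein of lipid droplets, was 6.55-fold lower and Fabp1, a fatty acid binding protein, 4.92-fold lower. In contrast Pnliprp2, a lipase related to the pancreatic one, was 10.6-fold higher. Of 13 genes of fatty acid oxidation and ketogenesis 7 were lower and 3 higher on day 24. The thioesterase Acot1 was 9.27-fold, the thiolase Acaa2 3.87-fold and the carnitine palmitoyltransferase Cpt1a 2.17-fold lower, whereas Angptl4, an inhibitor of lipoprotein lipase, was 2.86-fold higher.

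Most genes of cholesterol synthesis rose: 14 of 17 tested genes were higher and 1 lower on day 24, with a median of 0.86. Sqle, squalene epoxidase, read 8.97, 9.45 and 9.19 on day 24, against 6.84, 7.87 and 7.99 on day 11 (3.10-fold; adjusted p = 5.07e-06). Cyp51, the lanosterol demethylase, was 2.59-fold, the squalene synthase Fdft1 2.51-fold and the isomerase Idi1 2.45-fold higher. Day 11 replicate 1 was the lowest of the 6 arrays in Sqle, Cyp51, Fdft1 and Idi1. The promoter of Cyp51 (RefSeq, GRCm38.p6, chr5:4104648-4104947, minus strand) is shown with its CCAAT box at -29 in capitals, the element of the factor NF-Y. On either strand CCAAT lay in all 14 cholesterol genes with a window, against 41.1% of all windows and 42.7% of those of tested genes. A motif of the sterol regulatory element was also searched and lay in 0 of these 14 genes. That motif was rare, in 0.0999% of all windows and 0.0426% of those of tested genes.
Cyp51: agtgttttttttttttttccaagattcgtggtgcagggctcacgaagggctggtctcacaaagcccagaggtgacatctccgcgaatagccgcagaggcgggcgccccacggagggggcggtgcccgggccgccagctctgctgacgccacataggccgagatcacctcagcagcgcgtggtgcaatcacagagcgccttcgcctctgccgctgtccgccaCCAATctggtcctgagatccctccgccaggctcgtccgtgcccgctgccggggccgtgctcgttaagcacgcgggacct

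Enzymes of xenobiotic metabolism rose in 16 of 22 tested genes and fell in 1, with a median of 1.05. Cyp4f14 read 11.20, 11.11 and 11.11 on day 24, against 3.68, 4.30 and 4.47 on day 11. Cyp2d26 was 38.1-fold, Cyp2c65 19.9-fold and Cyp4b1 19.2-fold higher. The day 24 mice differed among themselves in several of these, as in Cyp2c65 with 8.47, 7.52 and 6.67 on day 24, against 3.01, 3.43 and 3.27 on day 11.

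**Figure D3:**
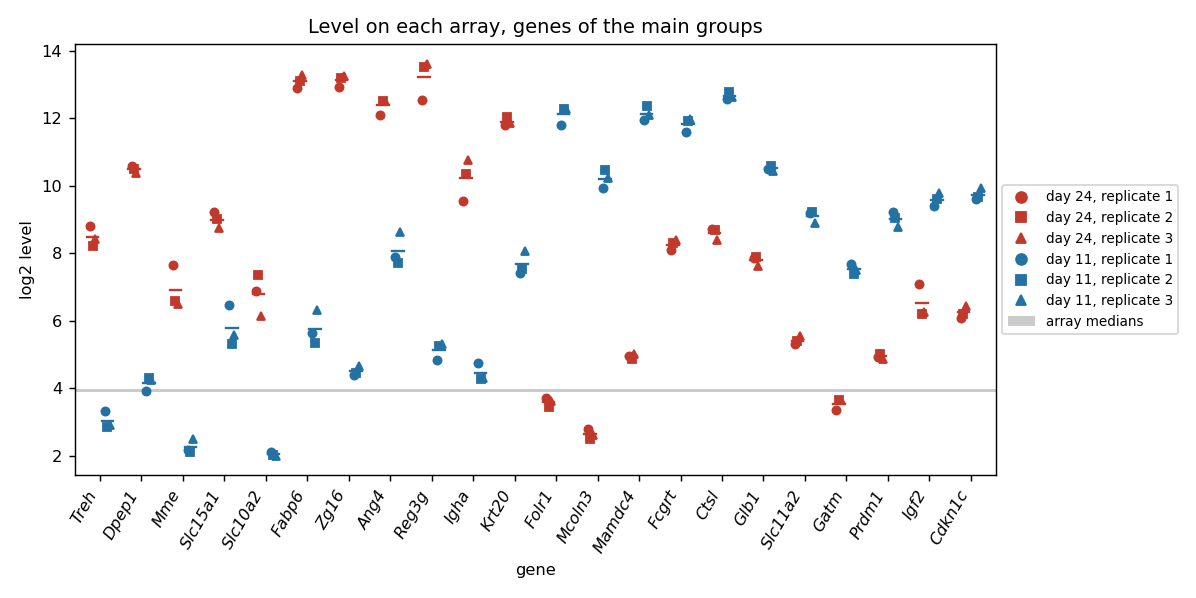
Log2 level of 22 genes on each array, day 24 in red at the left and day 11 in blue at the right of each gene, with a line at the mean and a grey band at the array medians (3.88 to 3.97). The ages do not overlap in any of these genes, and those from Folr1 onwards are lower on day 24.

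Products of Paneth and goblet cells rose. Of 7 tested Paneth cell genes 6 were higher on day 24, with a median of 3.63. The exception was Kit, a receptor also made by other cells, with a difference of -0.76. Ang4, a bactericidal ribonuclease, read 12.09, 12.52 and 12.52 on day 24, against 7.89, 7.71 and 8.63 on day 11 (19.7-fold; adjusted p = 3.58e-10). The defensin Defa39 read 12.95, 12.89 and 12.85 on day 24, against 8.91, 8.16 and 8.72 on day 11, also 19.7-fold. Both were clearly above background on day 11, and probe sets of the defensins can read several of them. The phospholipase Pla2g2a was 14.3-fold, the lectin Itln1 12.3-fold and the lysozyme Lyz1 7.11-fold higher. The day 11 mean of Pla2g2a (3.35) lay under the array medians, and it passed the filter of log2 6 only through days 24 and 32.

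All 17 tested genes of goblet cells and mucus were higher on day 24, with a median of 1.77, and 12 of them among the arrays with the higher hybridization controls. Beside Zg16 these were led by Klk1, a tissue kallikrein (11.5-fold), and Capn9, a calpain (4.13-fold). The resistin-like Retnlb read 2.92, 6.04 and 6.75 on day 24, against 2.93, 2.75 and 2.87 on day 11, so that 1 mouse of day 24 stood at background with the day 11 mice. Its call was lost without day 24 replicate 3 (log2 1.63; adjusted p = 0.0687) and among the arrays with the higher hybridization controls (2.31; adjusted p = 0.18). The structural mucin Muc2, with a difference of 0.47, rose far less than Zg16. Of 13 enteroendocrine genes 4 were higher and 2 lower. The granins Chga (1.89-fold) and Chgb (1.69-fold) and the hormone somatostatin, Sst (1.46-fold), were higher, and Cpe, the prohormone-processing carboxypeptidase, was 1.46-fold lower on day 24. Plcg2, a phospholipase of tuft and immune cells and the only tested gene of its list, was 3.86-fold higher.

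Epithelial defence genes that respond to microbes rose in 7 of 9 tested, with a median of 2.90 (2.11 without the filter). Of 16 genes of this list with a probe set, 9 passed the filter of log2 6. Reg3a and Saa1 passed only through days 24 and 32, so the count is of a selected set. Reg3b read 11.90, 12.25 and 12.70 on day 24, against 8.61, 8.52 and 8.22 on day 11 (14.3-fold; adjusted p = 2.26e-07). Saa1, serum amyloid A, read 4.68, 10.93 and 11.25 on day 24, against 3.63, 3.26 and 3.19 on day 11 (48.4-fold; adjusted p = 2.06e-04). Replicate 1 of day 24 was thus close to the day 11 mice in Saa1, and without it the difference was 7.73 in place of 5.60. Genes of innate sensing and its brakes were higher in 7 of 11 and lower in 1, with a median of 0.63 (0.006 with the filter at log2 8). They included Tlr3, the sensor of double-stranded RNA (5.88-fold), Cd14, a coreceptor for lipopolysaccharide (4.37-fold), and the brakes Tnfaip3 (2.96-fold) and Nfkbia (2.29-fold). Of 20 genes of this list with a probe set, 11 passed the filter of log2 6. Tlr3 and Cd14 passed only through days 24 and 32, so this count too is of a selected set. The day 11 mean of Tlr3 (3.50) lay under the array medians.

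Genes of immunoglobulin A and its transport rose. Of 7 tested genes of B cells, plasma cells and IgA transport 6 were higher on day 24, and 3 were higher among the arrays with the higher hybridization controls. Of 14 genes of this list with a probe set, 7 passed the filter of log2 6. Igha and Jchain passed only through days 24 and 32, so the count is of a selected set. Igha read 9.55, 10.33 and 10.76 on day 24, against 4.75, 4.27 and 4.30 on day 11 (adjusted p = 8.50e-13). Jchain, the joining chain of secreted IgA, read 7.06, 7.77 and 8.30 on day 24, against 2.51, 2.45 and 2.58 on day 11 (36.8-fold; adjusted p = 1.29e-12). Pigr, the epithelial receptor that carries IgA into the lumen, averaged 11.92 ± 0.096 on day 24, against 8.81 ± 0.094 on day 11 (SD, n = 3 each; 8.62-fold; limma adjusted p = 5.92e-12). Pigr was thus well expressed on day 11, when Igha and Jchain were near background. Ighm was 2.60-fold higher, a call lost under 9 of the 18 alternatives.

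Genes of intraepithelial T lymphocytes were at the edge of detection. Of 4 tested, 3 were higher on day 24: Gzmb (2.23-fold), Gzma (1.91-fold) and the chemokine Ccl5 (1.72-fold). Their means were 4.30, 5.03 and 4.43 on day 24 and 6.90, 7.51 and 6.55 on day 32. They passed the filter of log2 6 only through day 32, so the count is of a selected set. Gzmb and Ccl5 averaged under the array medians on day 11. The list median was 0.86, and 0.27 without the filter. Among the arrays with the higher hybridization controls 1 of the 4 was called. Of the 19 genes of this list with a probe set, 9 lay under the array medians at both ages. Antigen presentation on MHC class I rose in 8 of 11 genes. Psmb10 was 2.91-fold, Psmb9 2.55-fold and Psmb8 2.45-fold higher, the subunits of the immunoproteasome, and the peptide transporter Tap1 2.85-fold. For class II, 1 of 6 genes was higher (H2-DMa, 1.97-fold) and 1 lower (Ctss, cathepsin S, 1.50-fold).

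Interferon-stimulated genes rose in 9 of 16 and fell in 2, with a median of 1.09. Zbp1, a sensor of Z-form nucleic acid, read 6.41, 7.29 and 7.84 on day 24, against 4.26, 4.33 and 4.05 on day 11 (7.85-fold; adjusted p = 1.75e-08). Irgm1, an immunity-related GTPase, was 3.47-fold, Ifi27l2a 3.46-fold and Usp18, which removes ISG15 from proteins, 3.42-fold higher. The promoter of Irgm1 (RefSeq, GRCm38.p6, chr11:48871371-48871670, minus strand) is shown with overlapping matches, the first at -30, to the core of the interferon-stimulated response element, in capitals. On either strand this motif lay in 9 of 13 genes of the list with a window (69.2%), against 3.99% of all windows and 3.65% of those of tested genes.
Irgm1: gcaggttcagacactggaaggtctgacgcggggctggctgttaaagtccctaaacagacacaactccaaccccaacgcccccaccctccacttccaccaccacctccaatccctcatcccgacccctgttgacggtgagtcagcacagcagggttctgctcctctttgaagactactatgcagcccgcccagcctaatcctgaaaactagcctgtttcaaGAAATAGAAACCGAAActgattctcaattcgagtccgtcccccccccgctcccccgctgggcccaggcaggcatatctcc
The motif was also in Ifit1 and Stat2, which were lower on day 24 (-0.94 and -0.91).

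Cell division, crypt and differentiation genes moved to different extents. Of 25 genes of DNA replication and mitosis 13 were higher and 1 lower on day 24, with a median of 0.35. The mitotic genes Aurkb (2.64-fold), Ccnb2 (2.57-fold), Cdc20 (2.28-fold) and Aurka (2.25-fold) led, while the replication licensing factor Mcm6, with -0.46, was the lower one. Crypt stem cell and Wnt target genes were called in both directions, 4 higher and 2 lower of 11, and 1 was higher among the arrays with the higher hybridization controls. Prom1, which encodes a membrane protein of crypts, was 4.14-fold and Axin2, a Wnt target, 1.86-fold higher, while the stem cell receptor Lgr5 was 1.73-fold and Tnfrsf19 1.59-fold lower. Without day 11 replicate 1 the difference of Lgr5 was -0.52 in place of -0.79, and among the arrays with the higher hybridization controls it was -1.32.

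Of 18 intestinal transcription factors 10 were higher and 3 lower on day 24, and 4 were higher among the arrays with the higher hybridization controls. Prdm1, the repressor that holds back the adult enterocyte programme in the suckling gut, read 4.93, 5.02 and 4.88 on day 24, against 9.23, 9.04 and 8.77 on day 11 (16.8-fold lower; adjusted p = 6.33e-15). The mice of each age lay close together in Prdm1, and the day 24 level was low but above the array medians. Tcf7l2, a Wnt effector, was 3.22-fold and the caudal factor Cdx1 2.05-fold higher. Klf5 was 2.86-fold higher on its brightest probe set, while its other probe set went the opposite way (-1.34; adjusted p = 2.68e-04), so that no direction is given for the gene.

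Glycan enzymes went in both directions: of the 5 lower ones 4 were sialyltransferases (St3gal1, St3gal3, St6gal1 and St3gal6), and the largest rises were of elongating enzymes. Of 17 tested 10 were higher and 5 lower on day 24, with 3 lower among the arrays with the higher hybridization controls. The sialyltransferase St3gal1 read 6.23, 5.55 and 5.18 on day 24, against 9.94, 10.45 and 10.34 on day 11 (24.1-fold lower; adjusted p = 9.44e-13). Of the 3 elongating enzymes with the largest rise, B3gnt3 (7.29-fold) was uniform among the day 24 mice, while B3gnt7 (8.70-fold) and B3galt5 (7.98-fold) were not. B3galt5 read 3.75, 8.09 and 7.57 on day 24, against 3.60, 3.29 and 3.54 on day 11. The day 11 means of B3gnt7 (3.78) and B3galt5 (3.47) lay under the array medians. The keratin of mature enterocytes, Krt20, read 11.79, 12.02 and 11.85 on day 24, against 7.41, 7.54 and 8.07 on day 11 (18.5-fold; adjusted p = 1.32e-13). Among claudins of the tight junction, Cldn15 was 4.42-fold higher, and Cldn8 8.55-fold and Cldn4 4.03-fold lower on day 24.

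Growth genes of the fetal and neonatal type fell. All 12 tested members of the imprinted growth network were lower on day 24, with a median of -2.17. With the hybridization group as a block 11 were lower, and among the arrays with the higher hybridization controls 10. Igf2, the fetal growth factor, read 7.08, 6.21 and 6.27 on day 24, against 9.40, 9.59 and 9.77 on day 11 (8.38-fold lower; adjusted p = 1.76e-08). Cdkn1c, the cell cycle inhibitor p57, read 6.09, 6.20 and 6.45 on day 24, against 9.60, 9.66 and 9.92 on day 11 (11.2-fold lower; adjusted p = 8.83e-11). The ages were separate in both. The noncoding RNA Meg3 was 11.3-fold and the zinc finger factor Plagl1 10.2-fold lower. Of 9 genes of the IGF axis and fetal RNA-binding proteins 7 were lower. These included the receptor Igf1r (5.49-fold), the binding proteins Igfbp3 (3.93-fold) and Igfbp4 (2.82-fold) and the RNA-binding protein Igf2bp3 (2.78-fold). Among the other probe sets, 1 of Igfbp4 (-0.11) and 1 of Igf2bp3 (-0.18) were not called. With the mean of probe sets the difference was -0.96 in place of -1.50 for Igfbp4 and -0.90 in place of -1.47 for Igf2bp3.

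All 19 tested genes of extracellular matrix and fibroblasts were lower on day 24, with a median of -1.18. Mfap2 (3.35-fold), elastin Eln (3.31-fold) and Mfap4 (3.01-fold), proteins of elastic fibres, and the fibroblast receptor Pdgfra (3.11-fold) led the fall. Of 15 genes of enteric neurons and glia with a probe set, 7 passed the filter of log2 6, and 5 of these were lower. They included the receptors Ret (2.62-fold) and Ednrb (2.52-fold), the filament protein Prph (2.31-fold) and Stmn2 (2.21-fold). Ret and Prph averaged 5.31 and 4.62 on day 24, so they passed mainly through other ages and the count is of a selected set. The list median was -1.14, and -0.43 without the filter. Endothelial genes were lower in 7 of 11, with 4 lower among the arrays with the higher hybridization controls. Pecam1 was 4.09-fold, Emcn 2.11-fold, Cldn5 2.07-fold and Esam 1.82-fold lower. Smooth muscle was divided, with 3 of 11 higher and 3 lower. Desmin, Des (1.80-fold), and calponin, Cnn1 (1.42-fold), were higher, and the muscle coactivator Myocd (3.84-fold) and caldesmon, Cald1 (1.37-fold), lower on day 24. In summed level, the matrix list held 10698 to 13460 linear units on day 24 and 24042 to 26472 on day 11, while smooth muscle held 15717 to 18755 on day 24 and 17113 to 18921 on day 11. The summed matrix level thus did not overlap between the ages, and that of smooth muscle did.

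Macrophage genes gave no common direction, with 1 of 9 higher and 3 lower. Csf1r, the receptor for macrophage growth factor, was 8.50-fold lower, with 8.25, 8.19 and 8.60 on day 24, against 11.34, 11.47 and 11.49 on day 11. Lyz2, the macrophage lysozyme, was 9.52-fold higher, but probe sets of Lyz1 and Lyz2, which are near-identical, can read both. The mannose receptor Mrc1 (1.36-fold, a call lost under 9 alternatives) and Cd68 (1.74-fold) were lower. The difference of Cd68 was -0.41 with the hybridization group as a block, in place of -0.80, and -0.28 among the arrays with the higher hybridization controls, where its call was lost (adjusted p = 0.302). The C1q genes were not called, with C1qa at -0.09 and C1qb at 0.30. Of 3 tested genes of the lymphoid follicle list 1 was lower on day 24 and 2 were not called, with a median of 0.58. The lower one was the vessel homing molecule Madcam1 (1.56-fold), a call lost under 4 alternatives. Of 10 genes of this list with a probe set, 4 lay under the array medians at both ages.

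Glucocorticoids, which rise in the blood of mice before weaning, induce many genes of the gut. Of 13 glucocorticoid-induced genes and metallothioneins 7 were higher and 1 lower on day 24. Fkbp5, a cochaperone of the glucocorticoid receptor, read 8.16, 8.25 and 8.01 on day 24, against 5.27, 5.76 and 5.81 on day 11 (5.76-fold; adjusted p = 1.72e-10). Hsd11b2, which inactivates corticosterone, was 4.91-fold and the cell cycle inhibitor Cdkn1a 2.71-fold higher. Ddit4 was 2.19-fold higher with overlapping arrays, and its call was lost without day 11 replicate 1 (log2 0.53; adjusted p = 0.265) and under 6 other alternatives. Of 12 clock genes 6 were lower and 1 higher on day 24. Arntl, the activator of the clock, was 3.02-fold higher, and its targets and repressors Per2 (4.92-fold), Bhlhe40 (3.07-fold) and Cry2 (3.03-fold) were lower. The hour of tissue collection is not given in the sources used here, and its part in the clock genes was not tested. Chaperones of the endoplasmic reticulum were mostly not called, with 5 of 17 higher and 3 lower. Dnajc3 (1.89-fold), Manf (1.77-fold) and Creld2 (1.63-fold) were higher and Ddit3 2.15-fold lower. Other probe sets of Dnajc3 differed by 0.93, 0.12 and 0.05, and the last 2 of these were not called. The arrays of Creld2 overlapped, and its call was lost under 4 alternatives, among them without day 11 replicate 1 (0.49) and without day 24 replicate 3 (0.51).

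Several genes with a large spread among the day 24 arrays had replicate 1 apart from the other mice. Lrg1 read 3.98, 6.73 and 7.82 on day 24, against 2.58, 2.78 and 3.00 on day 11, and Saa2 read 3.16, 5.97 and 6.62 on day 24, against 2.89, 2.84 and 2.72 on day 11. With Saa1, Retnlb, B3galt5, B3gnt7 and Car4, replicate 1 had the lowest level of the 3 day 24 mice in all 7 genes. Replicate 1 also had the lowest Fgf15 and Slc40a1 and the highest Lct of that age. Without it the differences were 3.48 in place of 2.43 for Saa2, 3.55 in place of 2.39 for Retnlb and 4.36 in place of 3.00 for B3galt5. For B3gnt7 it was 4.08 in place of 3.12, for Car4 5.77 in place of 4.98, for Lrg1 4.49 in place of 3.39 and for Fgf15 -1.70 in place of -2.36. Cyp3a11, a drug-metabolizing cytochrome P450, had another order, with 8.80, 7.48 and 5.09 on day 24, against 3.09, 3.02 and 3.20 on day 11. Over all genes the median SD was 0.175 on day 24 and 0.167 on day 11, so the general spread was of like size at both ages. Transcripts of the sex chromosomes were spread at both ages: Xist read 4.41, 8.68 and 4.35 on day 24, against 10.05, 5.12 and 10.13 on day 11.

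**Figure D4:**
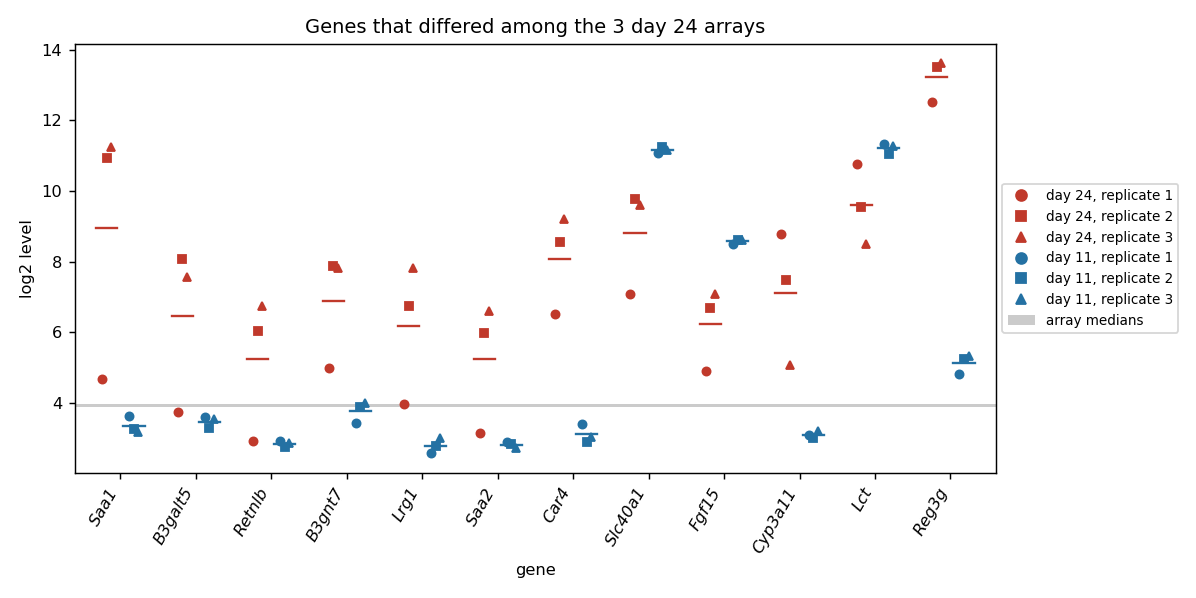
Log2 level on each of the 6 arrays for 12 genes, day 24 in red at the left and day 11 in blue at the right of each gene, with the replicate given by the marker, a line at each mean and a grey band at the array medians. Replicate 1 of day 24 (circle) lies apart from replicates 2 and 3 in Saa1, B3galt5, Retnlb, B3gnt7, Slc40a1 and Lrg1, and the day 24 mice form a series in Cyp3a11 and Lct.

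Some genes were not called different between days 24 and 32, and others went on or turned back. The step to day 32 shares its day 24 arrays with day 24 minus day 11. Zg16, Fabp6, Reg3g and Krt20 were not called different between days 24 and 32, with means of 13.12 and 13.00 for Zg16 on those days. Fabp6 fell before its rise, with means of 8.30, 7.56, 6.48 and 5.77 on days 4, 7, 9 and 11. Its day 11 mean was the lowest of the 6 ages. Igha averaged 4.44, 10.21 and 13.04 on days 11, 24 and 32, and Jchain 2.51, 7.71 and 11.25, so both rose over each step. Slc10a2 averaged 2.04, 6.79 and 8.19 and Gzmb 3.14, 4.30 and 6.90 over the same days. Lct went on falling, with means of 11.23, 9.60 and 3.41 on days 11, 24 and 32, as did Fabp1 (10.38, 8.08 and 4.36), Afp (9.99, 5.18 and 2.63) and Igf2bp3 (8.54, 7.06 and 4.27). Plb1 was high on day 24 alone of the 6 ages, with means of 3.63, 3.71, 3.66, 3.75, 9.94 and 4.96 on days 4, 7, 9, 11, 24 and 32. Chgb and Chga were likewise higher on day 24 than on day 11 and lower on day 32, at 8.78, 9.54 and 8.10 on days 11, 24 and 32 for Chgb. Prdm1 averaged 9.01, 4.94 and 6.13, so it was higher on day 32 than on day 24 (limma adjusted p = 2.46e-06).

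**Figure D5:**
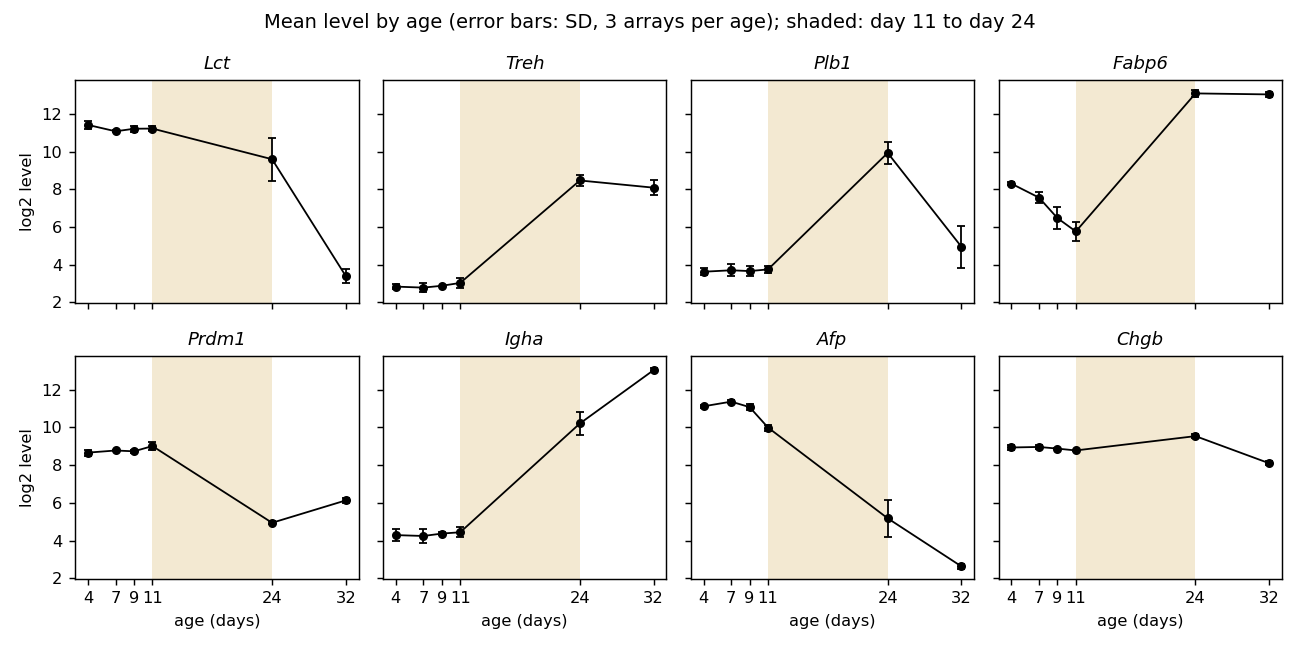
Mean log2 level with SD (error bars, 3 arrays per age) of 8 genes over the 6 ages in days, with the interval from day 11 to day 24 shaded. Treh and Fabp6 were not called different between days 24 and 32, Lct, Igha and Afp continue in the same direction, and Plb1 and Chgb turn back.

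Markers of neighbouring tissues were read in the same pieces. All 7 colon markers with a probe set lay under the array medians at both ages, and the stomach gene Tff1 was not called (log2 0.03 ± 0.15). Hepatocyte-type secreted proteins summed to 159 to 278 linear units on day 24 and 4512 to 5314 on day 11. All 3 tested were lower on day 24, Ttr, Afp (28.2-fold) and Fga (6.64-fold), whereas albumin, the defining one, lay under the array medians at both ages. Of 9 genes of this list with a probe set, 3 passed the filter of log2 6. Afp and Fga averaged 5.18 and 2.71 on day 24, so they passed mainly through other ages and the count is of a selected set. The list median was -4.82, and -0.96 without the filter. Adipocyte markers summed to 1892 to 3755 on day 24 and 1276 to 1869 on day 11, and 4 of 6 tested were higher and 1 lower. Adipoq, the fat cell hormone, read 8.34, 7.17 and 8.45 on day 24, against 3.80, 4.27 and 6.02 on day 11 (9.77-fold; adjusted p = 2.98e-06). Retn was 4.82-fold and Car3 3.47-fold higher, and Cidec 2.25-fold lower. The call of Car3 was lost with array weights (1.23; adjusted p = 0.146) and that of Cidec among the arrays with the higher hybridization controls (-0.47 in place of -1.17; adjusted p = 0.171). The part of attached fat tissue in the lipid gene results was not tested. The pancreatic colipase Clps was 3.80-fold higher, while Cela2a, Cpa1 and Cpb1, other acinar markers, lay under the array medians at both ages. The erythroid gene Alas2 was 2.33-fold lower.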

How the data were processed

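Ileum RNA of 18 individual mice was measured on Affymetrix arrays, 3 mice at each of 6 ages, and the authors deposited 1 table of log2 values which the submitters' processing notes credit to RMA, without a version. RMA corrects background and normalizes quantiles over all arrays, so a shift common to all genes is removed and values near the array medians carry little information. Scan dates and array batches are not known here. Of 45101 probe sets, 64 were controls, 34945 were paired with 1 gene symbol by the platform annotation, 932 with several (left unnamed) and 9211 were not listed there. 34754 probe sets matched a RefSeq gene. Each of 18193 genes was represented by its probe set with the highest mean over 18 arrays, and 8630 genes with log2 6 or more on at least 3 arrays were tested. These could be arrays of any age, so a gene could enter a list through the age where it was high. Another probe set existed for 53 of the named genes. Of these 89 other probe sets 1 had the opposite sign (Klf5). Some differed far less than the one used, as in Dnajc3, Igf2bp3, Igfbp4 and Klk1 (0.44 on 1 of its other probe sets).

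A model with age as a factor was fitted to all 18 arrays in limma 3.58.1 (R 4.3.3; lmFit and eBayes, 12 residual degrees of freedom), with Benjamini-Hochberg adjustment over all 8630 genes at 0.05. It was first tested on simulated data of 8630 genes. There 87% of 100 genes changed by log2 1 and 40% of 100 changed by 0.5 were recovered, with 6 false calls. Far fewer genes were changed there than were called in the real data, so these rates need not hold for them. Tables, motif searches and figures were made with Python 3.11.15, pandas 2.3.3, numpy 2.4.6 and matplotlib 3.10.9. The number of arrays limits the precision.

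Genes were named by rule: the 12 largest rises and falls without overlap and the 4 most changed called members of each list (or fewer). Also named were the tested ones among 16 genes of the suckling-to-weaning literature, of which Sis and Ass1 were not tested. The last were those with the largest spread among the day 24 (8) or day 11 (4) arrays. Other genes given with a value, such as Muc2, Kit, Ctsc, Asah1, Atp6v0a2, Mcm6, Ifit1, Stat2, Ctsd, Gla and Atp6v1a, were picked with their values in view. The members and gene lists were chosen with earlier results of these data known. The 17 motifs were searched on both strands of RefSeq windows of 300 bases (GRCm38.p6). Alternatives were the filter, the probe set rule, the normalization, the variance model, array weights, the arrays used, the hybridization group, Xist and the omission of each replicate.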

Additional observations from a re-analysis of the deposited data

Results flagged for a closer look

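Control probe sets outside the gene comparison differed between the ages. The poly-A controls were higher on day 24 than on day 11 by 1.791 in mean log2 level, and the 18S ribosomal RNA controls by 3.945. Among 729 tested probe sets without a gene name, 160 were called higher and 312 lower on day 24, beside 26.9% higher and 32.3% lower among all genes. The counts without a gene name come from a separate fit of all probe sets that passed the filter, with its own adjustment. The part of the control levels in the gene results was not tested.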

How the results depend on the processing

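Of 182 called named genes 162 kept their call and direction under all 18 alternatives, 20 lost it under at least 1, and 0 reversed. Restricting the fit to the 10 arrays with the higher hybridization controls, chosen after seeing the data and with 1 day 11 array assumed to vary like the other groups, left 1781 genes lower and lost 15 named calls (Retnlb, Cpe, Axin2, B3galt5, Ighm, Gzmb, Gzma, Cd68, Mrc1, Ctss, Madcam1, Des, Emcn, Cidec and Saa2); Emcn had -0.48 there in place of -1.08. The filter at log2 8, which tests fewer genes, left 1111 higher and 1288 lower (376 and 460 at least 2-fold), and no filter gave 3633 higher. Leaving out 1 replicate gave 1973 to 2361 higher and 2568 to 2753 lower, and at least 2-fold 641 to 747 higher and 938 to 985 lower. Of genes not called, Tff1 turned to -0.10 with the higher hybridization controls and ran from -0.054 to 0.19 without 1 replicate, and Eif2s3y (-0.99) and Kdm5d (-1.18) turned with Xist as a covariate; the cause was not tested. The median of all genes stayed between -0.08 and 0.06, and the share of calls that were higher was 45.37%, between 41.75% and 50.77% over the alternatives (50.77% with quantile normalization). Without day 11 replicate 3 the difference of Adipoq was 3.95 in place of 3.29. Signal near the array medians limits what low genes can show. No paired analysis was possible because the labels give no replicate number that links mice of different ages.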

Other observations

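Gene families chosen by symbol after the data were seen showed further differences, given as counts beside the 26.9% called higher and 32.3% called lower among all genes. Of 76 mitochondrial ribosomal protein genes 43 were higher and 2 lower on day 24, with a median of 0.37, and between 33 and 51 were higher over the alternatives. Mrps27 (0.88), Mrps24 (0.87), Mrps28 (0.86) and Mrpl3 (0.85) had the largest differences. Of 44 cytosolic ribosomal protein genes 5 were higher and 16 lower, and 0 to 18 were lower over the alternatives. ATP synthase subunits were higher in 12 of 17, with a median of 0.38. Of 12 subunits of respiratory complex IV 5 were higher and 2 lower. Its isoform Cox7a1, of heart and skeletal muscle, read 8.75, 8.57 and 8.80 on day 24, against 5.42, 5.59 and 5.80 on day 11 (log2 3.11), while Cox6b2, an isoform of testis, differed by -0.88.

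Of 99 zinc finger genes named Zfp 11 were higher and 47 lower on day 24, with a median of -0.35 and 32 to 49 lower over the alternatives. Zfp950 (-2.30) and Zfp618 (-2.05) had the largest falls. Of 45 Rab GTPases, regulators of vesicle traffic, 10 were higher and 19 lower, with Rab42 (-3.49) and Rab30 (-1.99) the lowest.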
